A study of Mus musculus with 9 samples.

Results

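Chemokines are small secreted proteins that steer cell migration by binding G protein-coupled receptors, and their expression was surveyed here in LepR+ skeletal stem and progenitor cells. The genes were chosen by symbol, as those named Ccl, Cxcl, Cx3cl or Xcl for ligands and Ccr, Cxcr, Cx3cr or Xcr for receptors, with the atypical receptors Ackr1 to Ackr4 and without Cxcl12. Chemokines with other symbols, such as Pf4 and Ppbp, are therefore not among them. The rule found 59 genes among the 52459 in the table, made up of 23 CC ligands, 14 ligands of the CXC, CX3C and C classes, 18 signaling receptors and 4 atypical receptors. LepR+ cells were sorted from the nonhematopoietic fraction of collagenase-digested tibiae and femurs of C57B6 mice and their RNA was sequenced in bulk. The 9 libraries were 3 from middle-aged mice (52 weeks) given sodium salicylate, called treated, 3 from untreated middle-aged mice (52 weeks) and 3 from untreated young mice (12 weeks). The dose and duration of salicylate, the sex of the mice and the number of mice in a library are not given in the sources used here. No reporter or Cre is named for the sort, so the gate on LepR is the limit of what each library holds.

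Chemokines fall into classes by the spacing of their first cysteines. CC ligands such as Ccl2 mainly attract monocytes, CXC ligands such as Cxcl1 and Cxcl2 attract neutrophils through Cxcr2, and Cxcl9 and Cxcl10 are induced by interferon and attract T cells through Cxcr3. Atypical receptors bind chemokines without G protein signaling and clear them. In marrow, LepR+ stromal cells are known as the main source of Cxcl12, whose receptor Cxcr4 retains hematopoietic cells there. Salicylate is known to inhibit the NF-kB pathway, which drives many of the inflammatory chemokine genes.

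Read depth was between 9902613 and 20746804 reads per library, and a count of 3 reads corresponded to 1.79 to 8.25 normalized counts. The values are normalized counts, in which the reads of a library are divided by its size factor. The lowest size factor (0.364) was that of middle-aged replicate 3. Antibody genes took 32.6% of the reads of that library, against 3.25% and 16.5% in the other middle-aged libraries. The treated libraries had 1.53% to 8.33% and the young ones 0.107% to 0.479%. The labelled cell type carried its markers. Lepr itself averaged 67121 ± 8237 normalized counts in treated, 38386 ± 21957 in middle-aged and 90046 ± 12104 in young libraries (SD, n = 3 each), and all 12 niche genes were detected. Blood cell genes were also detected despite the nonhematopoietic gate. The summed level of 7 pan-leukocyte genes was 10436 to 11928 in treated, 11432 to 26075 in middle-aged and 2928 to 4415 in young mice, that of 10 neutrophil genes 99083 to 173516, 159025 to 267830 and 43814 to 69442, and that of 10 macrophage genes 13598 to 24151, 19598 to 22963 and 7103 to 10924 in the same order of groups. None of these list genes was at 0 in every library. In bulk samples such as these, fewer cells of a type and less RNA per cell cannot be told apart. The labels number the replicates of a group but do not say that they came from separate animals, so each p-value covers the spread among these samples alone, which may be technical.

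Of the 59 genes, 52 had at least 1 read, 29 had reads in all 9 libraries, and 34 passed the minimum mean of 10 normalized counts and were tested. These were 11 CC ligands, 9 ligands of the other classes, 10 signaling receptors and all 4 atypical receptors. Because that filter uses the mean over all libraries, a gene high in 1 group could pass through that group alone. Of the other 25 genes, 7 had no read in any library: Ccl1, Ccl20, Ccl21b, Ccl22, Ccl26, Ccl27b and Ccr4. A count of 0 still allows up to 3 reads per library, which is a counting limit only. The remaining 18 genes had mean levels from 0.0667 (Cxcl17) to 6.87 (Cxcr6) normalized counts. They included Cxcl11, the other ligand of Cxcr3 beside Cxcl9 and Cxcl10, which had 22.0 normalized counts in middle-aged replicate 3 and no read elsewhere. Cxcr3 itself had between 0 and 13.8 normalized counts. Cxcr1, a neutrophil receptor related to Cxcr2, averaged 0.911 over the 9 libraries. Ccl21a and Ccl27a have near-identical copies in the mouse genome (Ccl21b and Ccl27b), so reads could have been split or lost among them and their values are uncertain.

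Levels of different genes were compared per kilobase of annotated exon. Among the ligands chosen, which leave out Cxcl12, Cxcl14 stood highest with a median of 3321 normalized counts per kilobase over the 9 libraries (789 to 6171), followed by Ccl2 at 2647 (508 to 5469), Cxcl10 at 2469 (490 to 4403), Cxcl1 at 1581 (519 to 3320), Ccl7 at 1192 (151 to 2984) and Cxcl9 at 936 (212 to 1486). The ranges of these 6 genes overlapped, and within single libraries Cxcl14, Ccl2 and Cxcl10 changed places, with ranks of 1 to 3, 1 to 3 and 1 to 4. Cx3cl1, a membrane-bound ligand of Cx3cr1, had a median of 284 and ranked 7 in every library. Ccl9 followed at 190.2, and the other 12 tested ligands had means between 4.48 and 116 normalized counts per kilobase. Among receptors the atypical receptor Ackr4 was highest at a median of 530.1 normalized counts per kilobase (191 to 825), followed by Cxcr4 at 273 (111 to 937), Cxcr2 at 111 (78.9 to 292), Ccr1 at 90.0 (47.6 to 154) and Ccr2 at 48.9 (9.36 to 119). Ackr4 ranked between 1 and 3 in single libraries and Cxcr4 between 1 and 2. By group Ackr4 averaged 533 ± 79.9 normalized counts per kilobase in treated, 373 ± 158 in middle-aged and 712 ± 101 in young libraries, and Cxcr4 263 ± 20.4, 589.7 ± 318 and 139 ± 36.7 in the same groups (SD, n = 3 each), so by this length the order of their means was the other way round in middle-aged mice. With the length of the longest transcript Ackr4 stayed first there, at 743 against 591 for Cxcr4. Middle-aged replicate 3 had the lowest Ackr4 and the highest Cxcr4 of the 9 libraries. All other receptors had medians under that of Ccr2.

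**Figure D1:**
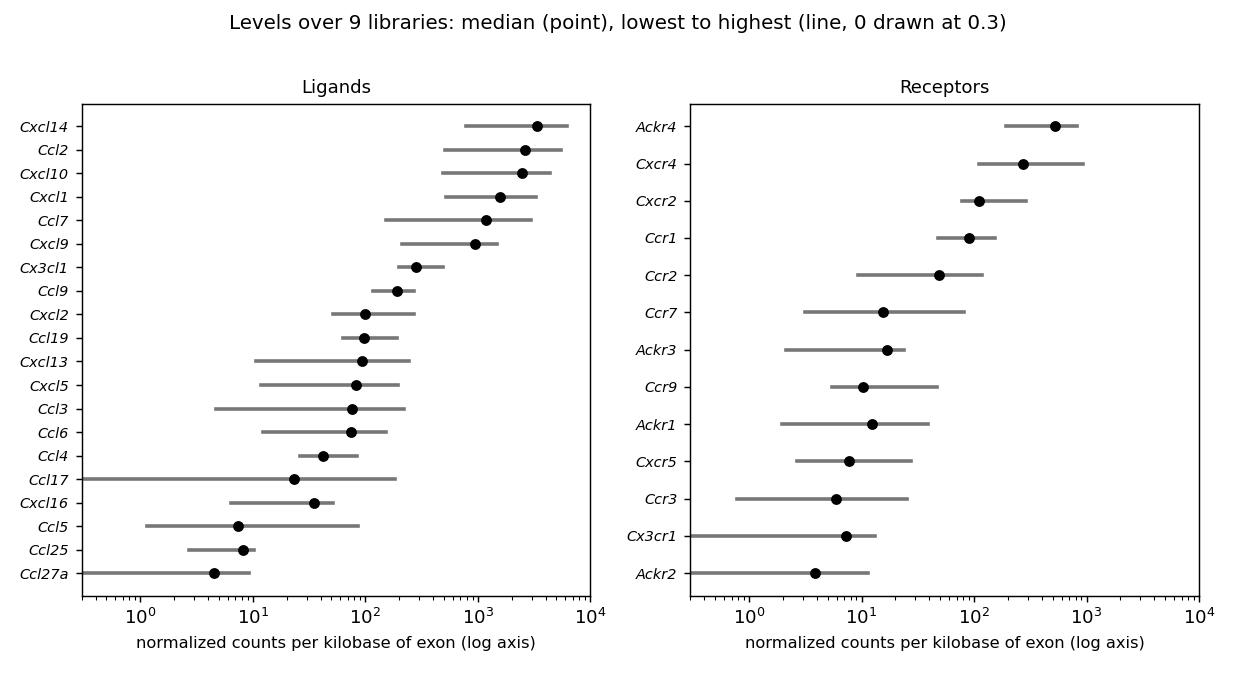
Levels of the 20 tested ligands (left) and 13 of the 14 tested receptors (right) in normalized counts per kilobase of exon, on a log axis, with the median of 9 libraries as a point and the lowest to highest library as a line. Cxcl14, Ccl2 and Cxcl10 head the ligands and Ackr4 and Cxcr4 the receptors, and neighbours in the order overlap.

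The promoters of 3 of these ligands are shown because they carry the motif through which NF-kB, the pathway salicylate acts on, is known to bind. RefSeq windows of 300 bases, from 250 bases before to 50 bases after the annotated start (build GRCm38.p6), were found for 44 of the 59 genes. Only 25 of the genes tested for differences had a window. Ccl2, Ccl4, Ccl5, Ccl7, Cxcl5 and Cxcl16 had none and were not searched. The kappaB motif (GGG, any 3 bases, then TTCC) was searched on both strands, together with the repeated GAAA of the interferon-stimulated response element (GAAA, any 2 bases, then GAAA). The sequences below are given 5′ to 3′ on the strand of the gene, with matches of either motif in capitals. The window of Cxcl1 lies at chr5:90890995-90891294 on the plus strand, that of Cxcl2 at chr5:90903649-90903948 on the plus strand and that of Cxcl10 at chr5:92348840-92349139 on the minus strand.
Cxcl1: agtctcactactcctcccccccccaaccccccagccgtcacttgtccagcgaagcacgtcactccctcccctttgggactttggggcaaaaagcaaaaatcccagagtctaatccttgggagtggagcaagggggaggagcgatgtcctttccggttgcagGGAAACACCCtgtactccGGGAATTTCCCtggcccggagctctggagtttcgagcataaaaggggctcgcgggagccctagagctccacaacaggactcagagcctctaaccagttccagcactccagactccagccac
Cxcl2: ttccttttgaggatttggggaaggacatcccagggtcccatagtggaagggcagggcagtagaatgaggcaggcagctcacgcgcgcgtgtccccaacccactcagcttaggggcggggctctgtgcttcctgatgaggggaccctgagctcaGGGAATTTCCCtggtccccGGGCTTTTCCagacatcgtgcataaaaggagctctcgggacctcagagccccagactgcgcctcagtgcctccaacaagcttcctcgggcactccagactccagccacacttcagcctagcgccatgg
Cxcl10: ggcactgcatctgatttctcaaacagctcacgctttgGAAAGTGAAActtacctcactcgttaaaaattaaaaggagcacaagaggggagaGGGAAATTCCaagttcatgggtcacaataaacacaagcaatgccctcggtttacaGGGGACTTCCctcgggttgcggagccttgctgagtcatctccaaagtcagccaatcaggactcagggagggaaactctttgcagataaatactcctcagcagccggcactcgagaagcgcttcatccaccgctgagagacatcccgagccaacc
Cxcl1 and Cxcl2 had 3 kappaB matches each, of which 2 in each gene lie on opposite strands, 1 base apart, and overlap, and Cxcl10 had 2 kappaB matches and 1 match of the repeated GAAA. In all, 9 of the 44 genes (20.5%) had a kappaB match, against 6.31% of 27025 genes and 5.56% of all 32851 windows. They were Ccl1, Ccl9, Ccl20, Cxcl1, Cxcl2, Cxcl3, Cxcl10, Ccr3 and Ccr6. The repeated GAAA was found in 3 of 44 (6.82%), namely Ccl19, Cxcl10 and Cxcl14, against 3.99% of genes and 3.44% of windows. A match is a description of letters in the window and not a site of binding.

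Middle-aged mice were first set against young mice, to ask how chemokine genes stood at 52 weeks. Cxcr4, the receptor for Cxcl12, was the only gene called by limma, at 3.91-fold the young level, and its call held in 15 of 23 alternatives. Of the signaling receptors 8 of 10 lay above 0 on the log2 scale, and of the ligands 14 of 20 lay below it, where 46.4% of all genes lay above 0. The direction of the ligands depended on the scaling and on middle-aged replicate 3, as given below. The test was limma on log2(normalized count + 1) over all 9 libraries and 14998 genes, with Benjamini-Hochberg adjustment. By it 1 of the 34 genes was called higher, where 2.14% of all genes tested were, and 0 were called lower, where 0.873% were. At an unadjusted p under 0.05 there were 5 genes above 0 and 6 below, where 3509 of all 14998 genes were under it in either direction. edgeR called 1 of the 34 genes higher and 0 lower on the recovered reads, and DESeq2 called 4 higher and 1 lower (against 6.91% and 4.12% of all genes by DESeq2).

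Cxcr4 had 494, 434 and 500.2 normalized counts in the treated libraries, against 566, 938 and 1694 in middle-aged and 228, 200.4 and 327 in young libraries. Every middle-aged library was above every young one, and middle-aged replicate 3, the library with the most antibody reads, was the highest. The difference was 1.97 on the log2 scale (SE 0.37, adjusted p = 0.0246 by limma). The gene lies on chromosome 1 at chr1:128588199-128592293 on the minus strand of GRCm38, and no other annotated exon overlaps it. Without middle-aged replicate 3 the difference was 1.56 (adjusted p = 0.0085). The direction held in all 23 alternatives, from 1.49 to 3.33, but the call held in 15 of them. It was lost with scaling by total counts (adjusted p = 0.0704), without the variance trend (0.0816), with only these 2 conditions in the fit (0.0869, where 0.294% of all genes were called higher and 0.0134% lower), and without treated replicate 1 (0.0503), middle-aged replicate 2 (0.0749), young replicate 1 (0.0983), young replicate 2 (0.104) or young replicate 3 (0.0595). All 7 pan-leukocyte genes and all 10 neutrophil genes were called higher in the same comparison, as were 3 of 10 macrophage, 1 of 6 plasma cell (Mzb1) and 0 of 9 B cell genes. The median differences of these lists were 2.01, 2.12, 1.59, 3.61 and 1.69 in that order. The part of such cells in the Cxcr4 difference was not tested. Against Ptprc, the pan-leukocyte surface protein CD45, the log2 ratio of Cxcr4 within a library averaged -1.63 ± 0.37 in treated, -0.64 ± 0.75 in middle-aged and -1.20 ± 0.78 in young libraries (SD, n = 3 each), and middle-aged and young libraries overlapped.

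No other receptor passed the test. Ccr1, a receptor of monocytes and neutrophils, had 277, 255 and 261 normalized counts in the treated libraries, against 179, 415 and 437 in middle-aged and 135, 145 and 150.4 in young libraries. Cxcr2, the receptor for Cxcl1 and Cxcl2, had 339, 544 and 652 normalized counts in the treated libraries, against 337, 559.5 and 888 in middle-aged and 251, 241 and 294 in young libraries. Neither gene overlapped between middle-aged and young libraries, and the differences were 1.15 (SE 0.36, adjusted p = 0.1 by limma) for Ccr1 and 1.08 (SE 0.37, adjusted p = 0.127) for Cxcr2. DESeq2 called both higher, with adjusted p = 0.0155 for Ccr1 and 0.0346 for Cxcr2, and limma did so without middle-aged replicate 1 (0.0108 and 0.0269). Against Mpo, 1 of the neutrophil genes, the log2 ratio of Cxcr2 averaged -3.65 ± 1.16 in treated, -3.75 ± 0.39 in middle-aged and -2.23 ± 0.23 in young libraries (SD, n = 3 each). In this ratio every middle-aged library was below every young one, and no test was run on it. The part of blood cells in the Ccr1 and Cxcr2 differences was not tested. Ccr2, the receptor through which monocytes respond to Ccl2, had 731, 719 and 331 normalized counts in the treated libraries, against 445, 804 and 63.3 in middle-aged and 216, 176 and 129 in young libraries. Its middle-aged libraries spanned the widest range, with replicate 3 below every young library. The difference was 0.74 (adjusted p = 0.579) with that library and 1.81 (adjusted p = 0.0155 by limma) without it. Without that library 3 of 34 genes were called higher (Cxcr4, Ccr2 and Cxcl13), where 2.88% of all genes were, and 0 lower, where 2.62% were. Ccr7, which guides lymphocytes and dendritic cells to lymphoid tissue, had 26.5, 24.7 and 55.5 normalized counts in the treated libraries, against 30.8, 160.2 and 157 in middle-aged and 6.22, 26.3 and 53.9 in young libraries. Middle-aged replicates 2 and 3 were above all young libraries and replicate 1 was not, and the difference of 2.07 did not pass the test (adjusted p = 0.19). Ccr9, a receptor of developing T cells and gut-homing cells, had 106, 55.6 and 182 normalized counts in the treated libraries, against 92.5, 103 and 484 in middle-aged and 106, 61.6 and 149 in young libraries, so its level stood out in middle-aged replicate 3 alone. Its exons overlap those of other annotated genes on both strands, and without a stated strand setting such reads cannot be told apart.

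**Figure D2:**
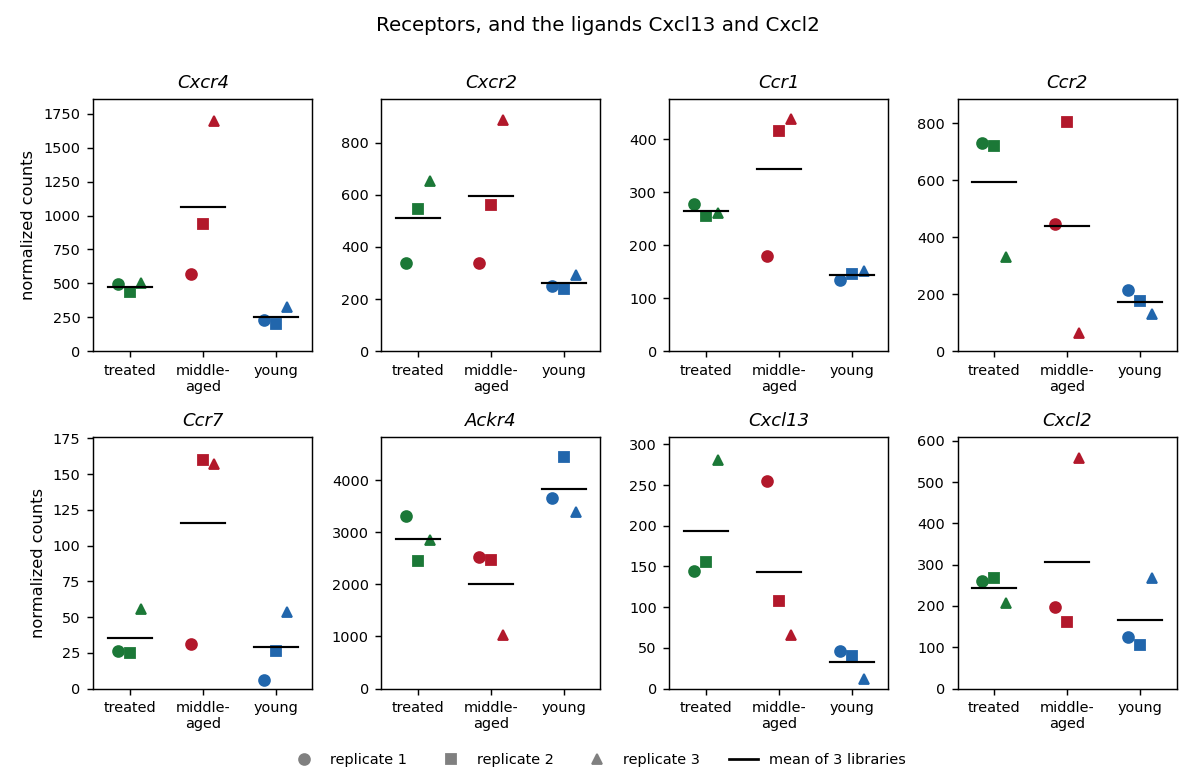
Normalized counts of 6 receptors and the ligands Cxcl13 and Cxcl2 in each library (points, shaped by replicate number) with the mean of 3 libraries (line), in treated, middle-aged and young mice. Cxcr4 lies between 566 and 1694 in middle-aged libraries, above the treated libraries (434 to 500.2) and the young ones (200.4 to 327).

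Cxcl13, which attracts B cells through Cxcr5, had the highest fitted difference of the 20 ligands. It had 144, 156 and 281 normalized counts in the treated libraries, against 255, 108 and 66.0 in middle-aged and 46.2, 40.1 and 12.3 in young libraries. All treated and all middle-aged libraries were above all young ones, and the middle-aged group had the widest range. The middle-aged difference of 2.06 (SE 0.64) missed the threshold by limma (adjusted p = 0.0999) and passed it by DESeq2 (adjusted p = 0.0117) and, with a difference of 2.50, by limma without middle-aged replicate 3 (0.0286). In middle-aged against young mice all 9 B cell genes lay above 0, and none was called. In treated against middle-aged mice 1 of the 9 did, with a median of -0.85, where Cxcl13 differed by 0.59. The summed level of B cell genes was 543 to 1283 in treated, 1037 to 4503 in middle-aged and 367 to 526 in young mice. By replicate it was 1037, 1382 and 4503 in middle-aged libraries, rising where Cxcl13 fell. The part of B cells in the Cxcl13 values was not tested. Cxcr5 itself had 18.7, 42.5 and 91.4 normalized counts in the treated libraries, against 34.3, 20.0 and 44.0 in middle-aged and 18.6, 8.97 and 25.8 in young libraries, with groups that overlapped.

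No ligand was called lower by limma. Ccl7, a monocyte attractant encoded next to Ccl2 on chromosome 11, had 663, 1658 and 821 normalized counts in the treated libraries, against 848, 954 and 121 in middle-aged and 1884, 1632 and 2390.1 in young libraries. Ccl2 had 1819, 5349.8 and 2412 normalized counts in the treated libraries, against 3013, 2879 and 578 in middle-aged and 4558, 3719 and 6224 in young libraries. For both genes every middle-aged library was below every young one, and middle-aged replicate 3 was far below the other 2. The differences were -2.07 for Ccl7 (SE 0.67, adjusted p = 0.109 by limma) and -1.46 for Ccl2 (SE 0.59, adjusted p = 0.174), and without middle-aged replicate 3 they were -1.11 (adjusted p = 0.0566) and -0.68 (0.283). DESeq2 called Ccl7 lower (adjusted p = 0.0467). Cxcl14, the most abundant of the ligands chosen without Cxcl12, had 5551, 5096 and 7987 normalized counts in the treated libraries, against 6067, 4115 and 1441 in middle-aged and 7289.5, 6416 and 11274 in young libraries. It was lower in every middle-aged than in every young library, with a difference of -1.29 on the log2 scale (SE 0.46, adjusted p = 0.136), and of -0.69 without middle-aged replicate 3 (adjusted p = 0.14).

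Ccl9, a myeloid attractant acting through Ccr1, had 679, 453 and 556 normalized counts in the treated libraries, against 579, 477 and 358 in middle-aged and 821, 802 and 817 in young libraries. The 3 young libraries lay within a narrow band above all others, and the middle-aged difference was -0.81 (SE 0.25, adjusted p = 0.1). Cx3cl1 had 1148, 1174 and 1114 normalized counts in the treated libraries, against 1106, 785 and 776 in middle-aged and 1114, 1209 and 1928 in young libraries. The highest middle-aged library was just under the lowest young one, and the difference was -0.65 (adjusted p = 0.163). Without middle-aged replicate 1, which had the highest Cxcl14, Cx3cl1 and Ccl9 values of its group, limma called Ccl7 (adjusted p = 0.042), Cxcl14 (0.03), Ccl9 (0.038) and Ackr4 (0.0386) lower, 4 of 33 tested against 8.34% of all genes, and Cxcr4, Ccr1 and Cxcr2 higher, 3 of 33 against 5.83%.

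Cxcl10 had 3696, 5157 and 4468 normalized counts in the treated libraries, against 5561, 6033 and 1103 in middle-aged and 6516, 5741 and 9916 in young libraries. Cxcl9 had 1937, 2823 and 2239.9 normalized counts in the treated libraries, against 2958, 2934 and 638 in middle-aged and 2589, 3059 and 4482 in young libraries. These interferon-induced ligands stayed close to young levels in middle-aged replicates 1 and 2 and were low in replicate 3, and the groups overlapped. Their differences were -1.11 (adjusted p = 0.245) and -0.89 (adjusted p = 0.307), with 95% confidence intervals of -2.31 to 0.09 and -2.01 to 0.23. They were -0.31 and -0.16 without middle-aged replicate 3. The exons of Cxcl10 overlap those of Art3 on the other strand over 133 bases. Exons of Cxcl16, Ccl25, Ackr1, Cxcr5 and Cx3cr1 also overlap those of other genes, so reads in the shared stretches are uncertain.

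The neutrophil attractants did not move together. Cxcl1 had 1909, 6225 and 2964 normalized counts in the treated libraries, against 2981, 2625 and 974 in middle-aged and 3805, 2367 and 3598 in young libraries. Cxcl2 had 259, 268 and 206 normalized counts in the treated libraries, against 197, 161 and 558 in middle-aged and 124, 106 and 268 in young libraries. Cxcl1 was lowest and Cxcl2 highest in middle-aged replicate 3, so the log2 ratio of Cxcl2 to Cxcl1 was -0.80 there, against -3.91 and -4.02 in the other middle-aged, -4.53 to -2.87 in treated and -4.92 to -3.74 in young libraries. Cxcl5, a further ligand of Cxcr2, had 153, 165 and 299.9 normalized counts in the treated libraries, against 226, 135 and 22.0 in middle-aged and 117, 64.0 and 364 in young libraries. None of the 3 genes passed the test, with differences of -0.70, 0.77 and -0.66 and adjusted p = 0.404, 0.363 and 0.655. With middle-aged replicate 3 left out the differences were -0.19 for Cxcl1, 0.22 for Cxcl2 and 0.32 for Cxcl5, and without young replicate 3 that of Cxcl5 was 0.02.

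**Figure D3:**
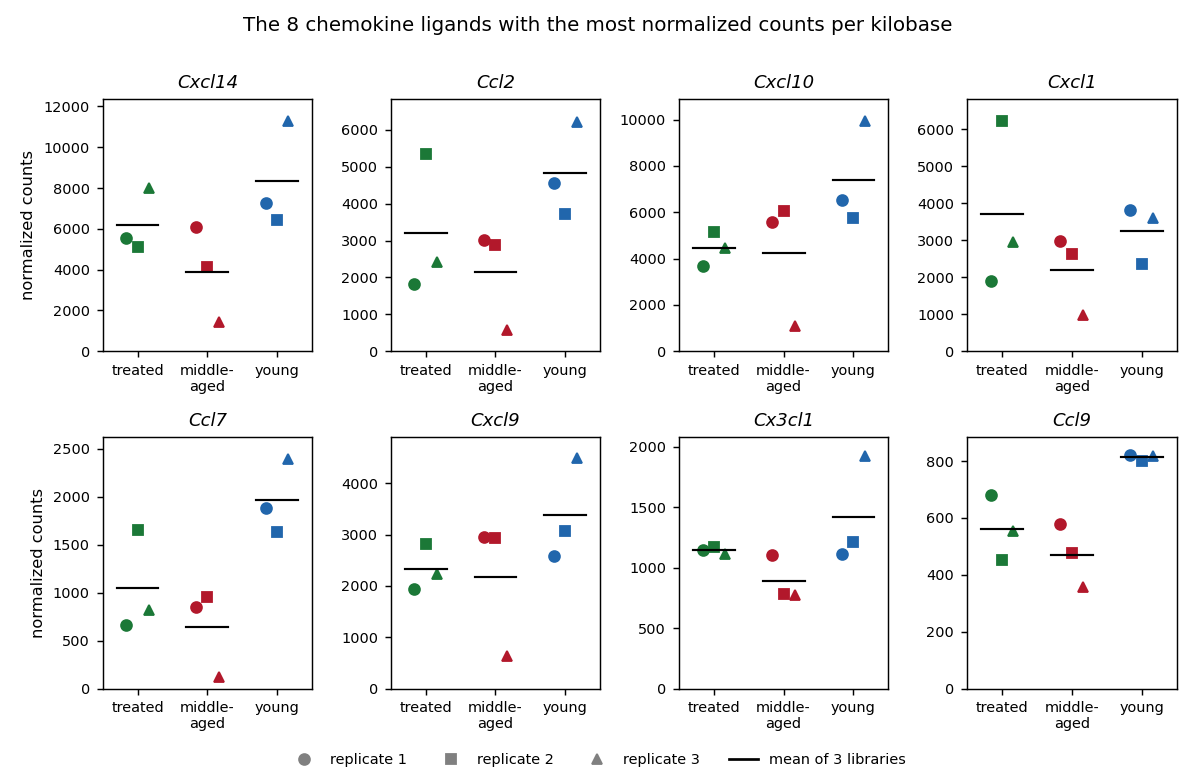
Normalized counts of the 8 ligands with the most normalized counts per kilobase in each library (points, shaped by replicate number) with the mean of 3 libraries (line), in treated, middle-aged and young mice. Middle-aged replicate 3 is the lowest library for all 8, and the young libraries of Ccl9 lie between 802 and 821, above all others.

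Ackr4, which takes up Ccl19, Ccl21 and Ccl25, had 3305, 2446 and 2852 normalized counts in the treated libraries, against 2532, 2459 and 1026 in middle-aged and 3666, 4436 and 3385 in young libraries. All middle-aged libraries were below all young ones, with a difference of -1.04 (SE 0.33, adjusted p = 0.107), and of -0.61 without middle-aged replicate 3 (adjusted p = 0.0741). Its exons share 479 bases with Acad11 on the other strand, and with the length of the longest transcript its mean over the 9 libraries was 1075 in place of 539 normalized counts per kilobase. Its ligand Ccl19 had 121, 128 and 94.5 normalized counts in the treated libraries, against 84.0, 79.0 and 55.0 in middle-aged and 78.1, 82.6 and 167 in young libraries. Middle-aged and young libraries overlapped. Ccl25, the ligand of Ccr9, had 62.6, 75.7 and 60.6 normalized counts in the treated libraries, against 51.4, 20.0 and 68.8 in middle-aged and 57.7, 54.5 and 68.5 in young libraries, again with overlap. The other atypical receptors were low. Ackr3, a scavenger of Cxcl12, had 7.10, 79.6 and 59.6 normalized counts in the treated libraries, against 69.4, 22.2 and 30.3 in middle-aged and 40.0, 74.2 and 56.1 in young libraries, with no separation of the groups. Ackr1, the Duffy antigen receptor of endothelial and red cells, had 18.1, 17.8 and 17.5 normalized counts in the treated libraries, against 25.7, 54.5 and 2.75 in middle-aged and 9.77, 6.58 and 3.37 in young libraries. Ackr2, a scavenger of inflammatory CC ligands, had 1.29, 18.6 and 36.0 normalized counts in the treated libraries, against 12.0, 0 and 0 in middle-aged and 0, 19.1 and 35.9 in young libraries. Each group of Ackr2 had a library at or under the floor of 3 reads.

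Among low ligands Ccl17 had the lowest fitted difference, with 24.5, 0 and 31.8 normalized counts in the treated libraries, against 12.0, 2.22 and 8.25 in middle-aged and 34.6, 10.8 and 94.3 in young libraries, which gave -2.23 with a 95% interval of -5.29 to 0.83. Ccl3, a macrophage ligand of Ccr1, had 169, 58.7 and 13.3 normalized counts in the treated libraries, against 158, 12.2 and 85.3 in middle-aged and 40.0, 3.59 and 76.3 in young libraries. Values of Ccl3 varied more than 10-fold within each of the 3 groups, and neither gene passed the test. Ccl6, a myeloid chemokine of rodents, had 273, 223 and 128 normalized counts in the treated libraries, against 160.2, 188 and 22.0 in middle-aged and 133, 132 and 131 in young libraries. Cxcl16, a membrane-bound ligand of Cxcr6, had 127, 156 and 116 normalized counts in the treated libraries, against 122, 92.3 and 19.3 in middle-aged and 92.3, 105 and 60.6 in young libraries. Both were lowest in middle-aged replicate 3, and middle-aged and young libraries overlapped.

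In all, 4 of 34 genes had every middle-aged library above every young one (Cxcr4, Cxcr2, Ccr1 and Cxcl13), where 12.4% of all genes did, and 6 had every middle-aged library below (Ccl7, Ccl2, Cxcl14, Ackr4, Ccl9 and Cx3cl1), where 15.1% did. Shares of 4 and 6 in 34 are near these background shares. The median difference was -0.62 for the 20 ligands and 0.98 for the 10 signaling receptors, against -0.08 for all genes. Without middle-aged replicate 3 the median of the ligands was -0.17, with 9 of 20 above 0, and that of the signaling receptors 1.10, against -0.03 for all genes.

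The direction of the ligands depended on the scaling. When libraries were scaled to 12 stromal niche genes (Lepr, Cxcl12, Kitl, Adipoq and others), the median of all genes moved to 1.25 for middle-aged against young, and 17 of 20 ligands lay above 0 in place of 6, with a median of 0.74. Scaling by total counts moved the median of all genes to -0.54, and 6 of 20 ligands lay above 0. Relative to the median of all genes the ligands were at -0.53 with the deposited scaling, -0.54 with total counts and -0.51 with niche genes, but at -0.14 without middle-aged replicate 3. The signaling receptors were at 1.06, 1.05 and 0.90 with these scalings, and at 1.12 without that library. A scaling shifts all genes by nearly the same amount. Relative values therefore could barely differ between scalings, and their similarity is no test of the scaling. With niche scaling 6 genes were called higher (Cxcr4, Cxcl13, Ccr1, Cxcr2, Ccr2 and Ccr7), where 16.2% of all genes were, and 0 lower, where 0.22% were. Within libraries the log2 ratio of Cxcl14 to Lepr averaged -3.45 ± 0.18 in treated, -3.32 ± 0.07 in middle-aged and -3.47 ± 0.25 in young libraries, and that of Cxcl10 to Lepr -3.92 ± 0.34, -3.31 ± 0.44 and -3.64 ± 0.24 in the same groups (SD, n = 3 each). For both ratios middle-aged and young libraries overlapped, as they did for Ccl2, Ccl7, Ccl9, Cx3cl1 and Ackr4. Cxcl1 and Cxcl9 were higher relative to Lepr in every middle-aged library than in every young one, at -4.07 ± 0.19 against -4.81 ± 0.24 for Cxcl1 and -4.22 ± 0.32 against -4.77 ± 0.31 for Cxcl9. For Cxcl9 the lowest middle-aged library (-4.50) was barely above the highest young one (-4.51). Lepr is 1 of the niche genes, and with niche scaling 83.3% of all genes lay above 0. The share of all genes separated in this way was not counted. No test was run on these ratios.

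**Figure D4:**
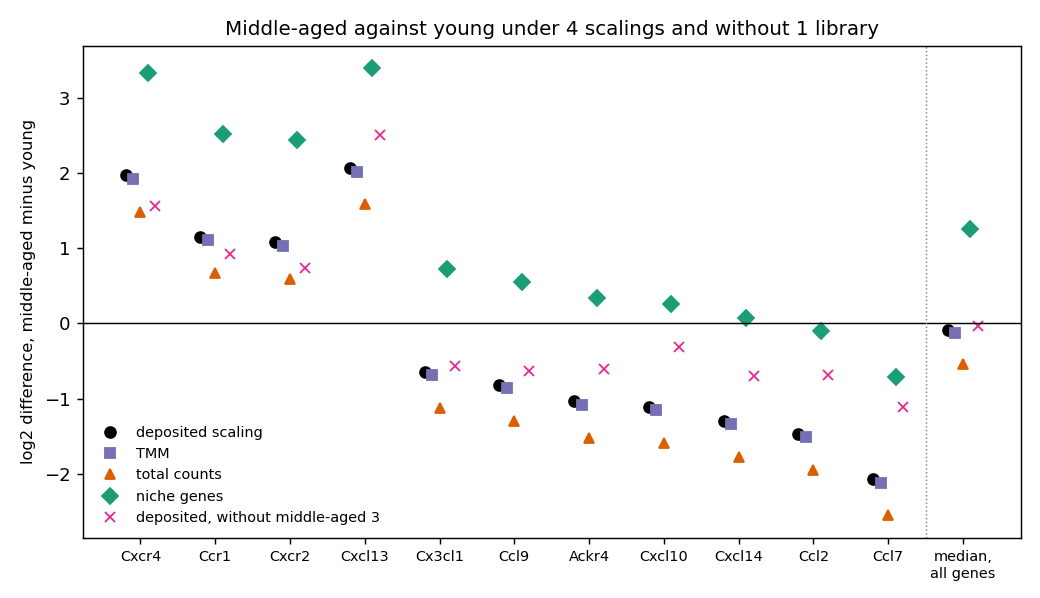
Log2 differences, middle-aged minus young, of 11 chemokine and receptor genes and the median of all genes under the deposited scaling, TMM, total counts and niche genes, and with the deposited scaling without middle-aged replicate 3. Cxcr4, Ccr1, Cxcr2 and Cxcl13 lie above 0 in every setting shown, whereas Cx3cl1, Ccl9, Ackr4, Cxcl10 and Cxcl14 lie below 0 except with niche genes.

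Treated middle-aged mice were then set against untreated middle-aged mice, to ask whether salicylate moved these genes. No chemokine or receptor gene was called in either direction by limma, edgeR or DESeq2, and limma called 0% of all 14998 genes higher and 0% lower. DESeq2 called 0.12% of all genes higher and 0.173% lower. An unadjusted p under 0.05 was reached by 1464 of all 14998 genes and by 1 of these 34. That gene was Cxcr4, whose 3 treated libraries (434 to 500.2) were all below the 3 middle-aged ones (566 to 1694). The difference was -1.02 on the log2 scale (SE 0.37, adjusted p = 0.496 by limma), with a 95% interval of -1.83 to -0.21. It was -0.62 without middle-aged replicate 3 and -0.51 with scaling by total counts. Cxcr4 was the only one of the 34 genes with every treated library below every middle-aged one, where 5.9% of all genes were. Cx3cl1 and Ccl19 had every treated library above every middle-aged one, 2 of 34 where 8.19% of all genes did. Their differences were 0.39 (adjusted p = 0.535) and 0.66 (adjusted p = 0.533).

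No ligand was called. Of 20 ligands 18 lay above 0, with a median difference of 0.63 against 0.09 for all genes, and 4 of 10 signaling receptors did, with a median of -0.22. With niche scaling 5 of 20 ligands lay above 0, with a median of -0.19 where that of all genes was -0.75, and with scaling by total counts 20 of 20 did, with a median of 1.13 where that of all genes was 0.58. Relative to the median of all genes the ligands were at 0.55 with the deposited scaling, 0.55 with total counts and 0.56 with niche genes, which again could barely differ between scalings. Without middle-aged replicate 3 the median of the ligands was 0.21, where that of all genes was 0.01. The largest differences among the better expressed ligands were 1.17 for Ccl6, 1.15 for Cxcl5, 1.11 for Cxcl16 and 1.06 for Ccl7, with adjusted p = 0.513, 0.566, 0.502 and 0.522. In all 4 genes middle-aged replicate 3 was the lowest library, and without it the differences were 0.19, 0.17, 0.31 and 0.10. For Ccl7 the 95% interval was -0.40 to 2.53, and for Ccl2 it was -0.57 to 2.05 around 0.74, so both intervals included 0. Without that library the difference of Ccl2 was -0.04. Promoter windows were searched for 25 of the tested genes, without Ccl2 and Ccl7. Among the 5 tested genes with kappaB matches, Cxcl1 differed by 0.74 (95% interval -0.33 to 1.80), Cxcl2 by -0.10 (-1.19 to 0.99), Cxcl10 by 0.40 (-0.80 to 1.60), Ccl9 by 0.26 (-0.29 to 0.82) and Ccr3 by -0.82 (-3.30 to 1.67), and each interval included 0. Leaving out the same library gave 0.23 for Cxcl1, 0.45 for Cxcl2, -0.40 for Cxcl10, 0.08 for Ccl9 and 0.21 for Ccr3. Treated replicate 2 held the highest Ccl2, Ccl7 and Cxcl1 of any middle-aged or treated library, while treated replicates 1 and 3 were below middle-aged replicates 1 and 2 in Ccl2 and Ccl7.

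Among receptors Ccr7 had the lowest difference, -1.45 (adjusted p = 0.518), and Ackr2 the highest, 2.33 (adjusted p = 0.572), on few reads. Ccr1, Cxcr2 and Ccr2 in treated libraries overlapped with the middle-aged range, with differences of -0.27, -0.16 and 0.97. Leaving out middle-aged replicate 3 gave -0.05, 0.18 and -0.10, and the difference of Ccr7 was then -1.07 and that of Ackr2 1.71. Pan-leukocyte genes had a median difference of -0.45, neutrophil genes of -0.41 and plasma cell genes of -1.55, and none was called.

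Treated middle-aged mice were last set against young mice. These values share the treated libraries with the comparison above and the young libraries with the first. None of the 34 genes was called higher, where 0.207% of all genes were, and 0 were called lower, where 0% were. At an unadjusted p under 0.05 there were 6 genes above 0 and 0 below, where 1037 of all 14998 genes were under it in either direction. Of the 34 genes edgeR called 0 and DESeq2 called 2 higher, Cxcl13 among them (against 1.73% of all genes), and 0 lower (against 0.26%). Cxcl13 had the firmest difference, 2.65 (SE 0.64, adjusted p = 0.179 by limma and 0.00472 by DESeq2), with treated libraries of 144, 156 and 281 above young libraries of 46.2, 40.1 and 12.3. Ccr2 had treated libraries of 731, 719 and 331, all above the young libraries of 216, 176 and 129, and differed by 1.71 (SE 0.75, adjusted p = 0.706). Without middle-aged replicate 3, which enters only through the shared spread, limma called both Cxcl13 (adjusted p = 0.0202) and Ccr2 (0.0191), 2 of 34 against 1.76% of all genes, and 0 lower against 0.776%. With only these 2 conditions in the fit both were called as well (0.0171 and 0.0152), 2 of 34 against 1.88%, and 0 lower against 0.991%. With niche scaling and without middle-aged replicate 1 none of these genes was called higher, where 0.113% and 0.22% of all genes were.

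Cxcr4, Ccr1 and Cxcr2 were also above all young libraries in every treated library, by 0.94, 0.88 and 0.92, with adjusted p = 0.601, 0.637 and 0.625. For Cxcr4 the corresponding middle-aged difference from young was 1.97. In all 9 of 34 genes had every treated library above every young one, where 8.99% of all genes did. Ccl4, Cxcl16 and Ackr1 were among them. The share was above that of all genes, but no test was run on it. The filter uses the mean over all libraries, so genes low in young libraries could enter this count. Ackr1 did, with a young mean of 6.57 normalized counts, under the minimum of 10, and 3 reads in young replicate 3. The count was not repeated without such genes. Every treated library was below every young one in 3 genes (Cxcl10, Ccl9 and Ackr4), where 9.9% of all genes were. Signaling receptors had a median of 0.90, with 9 of 10 above 0, and ligands a median of 0.14, with 12 of 20 above 0, against -0.01 for all genes. With niche scaling the median of all genes was 0.50, and 15 of 20 ligands lay above 0. Ccl5, made by T cells and NK cells, had 4.52, 61.8 and 82.2 normalized counts in the treated libraries, against 36.8, 1.11 and 77.0 in middle-aged and 7.10, 4.79 and 4.49 in young libraries, which differed by 2.27 from young (95% interval -0.85 to 5.39). Ccl4, a macrophage chemokine, had 27.8, 43.3 and 55.5 normalized counts in the treated libraries, against 24.0, 44.5 and 35.8 in middle-aged and 20.4, 17.4 and 24.7 in young libraries, and differed by 0.94 (adjusted p = 0.953). Ccr3, an eosinophil receptor, had 14.2, 3.86 and 19.5 normalized counts in the treated libraries, against 2.57, 26.7 and 82.5 in middle-aged and 32.0, 18.6 and 20.2 in young libraries. Cx3cr1, the receptor for Cx3cl1 on monocytes, had 40.6, 57.2 and 7.19 normalized counts in the treated libraries, against 60.0, 41.2 and 0 in middle-aged and 32.9, 17.9 and 13.5 in young libraries. Neither separated the groups.

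**Figure D5:**
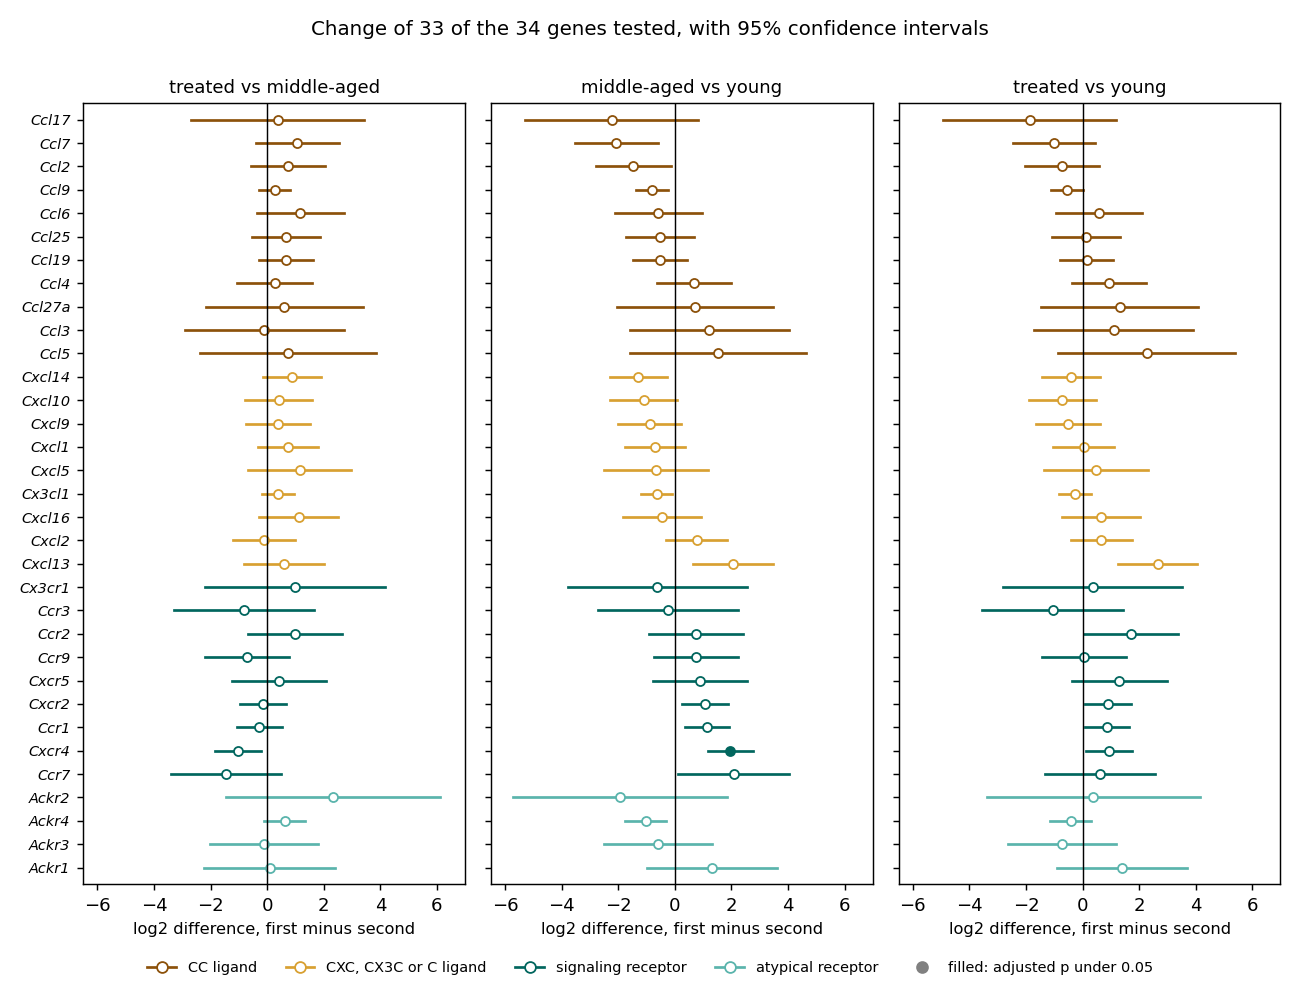
Log2 differences of 33 of the 34 genes tested, first group minus second, with 95% confidence intervals, in treated against middle-aged (left), middle-aged against young (middle) and treated against young mice (right), colored by role. The filled point, Cxcr4 in middle-aged against young at 1.97, is the only one with an adjusted p under 0.05.

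Genes around the chemokine system were taken from lists chosen with earlier results of these data known. Of 11 related ligands and receptors 2 were called higher and 0 lower in middle-aged than in young mice, where 2.14% and 0.873% of all genes were. The median of the 11 was 0.20, against -0.08 for all genes. Those called were Ccrl2, an atypical receptor relative that presents chemerin, and Cd74, a receptor for Mif and the MHC class II invariant chain. Ccrl2 had 244, 141 and 331 normalized counts in treated, against 327, 264 and 382 in middle-aged and 76.4, 71.2 and 79.7 in young libraries. Cd74 had 1613, 1348 and 5081 in treated, against 2397, 6828 and 34000 in middle-aged and 317, 255 and 849 in young libraries, so middle-aged replicate 3 stood far above the rest. Ccrl2 differed by 2.07 (SE 0.36, adjusted p = 0.021 by limma). Cxcl12 had 317050, 310499 and 408305 normalized counts in treated, against 301990, 233671 and 75974 in middle-aged and 465789, 454524 and 570245 in young libraries, so all middle-aged libraries were below all young ones, at a difference of -1.50 that did not pass the test (adjusted p = 0.253). Of 29 signaling genes downstream of chemokine receptors 8 were called higher and 0 lower in middle-aged than in young mice, where 2.14% and 0.873% of all genes were. These included Dock2 (2.81) and Rac2 (2.01), which drive leukocyte migration, Plcb2 (3.09) and Pik3cg (2.85), effectors of G protein subunits, Arrb2 (1.57), an arrestin that switches receptors off, and Rgs1 (2.31), which limits G protein signaling, with adjusted p between 0.014 and 0.032. Many of them are expressed mainly in blood cells, and the part of such cells in these values was not tested. No gene of either list was called in treated against middle-aged or in treated against young mice.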

How the data were processed

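RNA from 9 bulk libraries of sorted LepR+ cells was sequenced on an Illumina instrument by the authors, aligned with STAR to mm10/GRCm38 and counted per gene with featureCounts. The deposited values are signal per gene, counts divided by DESeq2 size factors, not by gene length. Versions, annotation and strand setting are not given in the sources used here. Whole reads were recovered from the steps between low values, and 100% of values came out whole within 0.1 reads.

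Differences were fitted with limma 3.58.1 (R 4.3.3) on log2(normalized count + 1) with a variance trend, for genes with a mean of at least 10. The added 1 understates changes of low genes. Alternatives were other pseudocounts, filters and scalings, edgeR 4.0.16, DESeq2 1.42.0, a replicate block and leaving out each library. Exon lengths and coordinates are from GENCODE M21, in which all 59 symbols matched 1 gene, and promoter windows from RefSeq. Values in every library are given for genes with a mean of at least 50, those called and those with the 3 largest changes in each direction of each comparison. Others were named for their role or chosen after their values were seen. The genes and lists were chosen with earlier results of these data known. Values of 1 gene are not reported here, though it is kept in the counts.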

Additional observations from a re-analysis of the deposited data

How the results depend on the processing

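In middle-aged against young mice 1 chemokine or receptor gene was called higher. The count was 0 with scaling by total counts, without the variance trend and with 2 conditions only, 6 with niche gene scaling and 4 with DESeq2, and it ranged from 0 to 3 when single libraries were left out. The count called lower was 0, 1 with DESeq2 (Ccl7), and 0 to 4 when single libraries were left out. In treated against young mice the count called higher was 0, 2 with DESeq2 and with 2 conditions only, and 0 to 2 when single libraries were left out. Among all genes the counts in middle-aged against young mice were 321 higher and 131 lower, against 1037 and 618 with DESeq2, 292 and 51 with edgeR, 54 and 6 with total scaling, 2437 and 33 with niche scaling, 52 and 26 without the trend, 44 and 2 with 2 conditions only, 196 and 38 without a filter, 243 and 41 with the replicate block, and 24 to 875 higher and 3 to 1251 lower when single libraries were left out. In treated against young mice 31 were higher, against 259 with DESeq2, 281 with 2 conditions only, 2 with edgeR and 0 with antibody genes left out and TMM scaling. The replicate block changed none of the 6 counts (1 higher in middle-aged against young, 0 otherwise). Same-numbered libraries had correlations of deviations between -0.01 and 0.12, against -0.10 to 0.05 for libraries of other numbers. Most, though not all, matched their own number best. The sources used here name no pairing, so the numbers were not taken as pairing. In treated against middle-aged mice none of these genes was called in any of the 23 alternatives. Of 1916 differences recomputed for the 28 genes given in every library by the naming rule 1815 kept their direction and their side of the threshold, 23 passed it, 8 (all Cxcr4 in middle-aged against young) no longer did, and 70 changed sign without passing it, 46 of these with niche or total scaling or without middle-aged replicate 3. With 3 libraries per group, genes under about 50 normalized counts had intervals too wide to exclude changes of several fold. The same held for some genes with more counts, such as Ccl7 (-0.40 to 2.53) and Ccr2 (-0.69 to 2.64) in treated against middle-aged mice. The lowest count of 3 reads is equal to 8.25 normalized counts in middle-aged replicate 3.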
